A study of Homo sapiens with 16 samples.

Results

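CISH, SOCS1, SOCS2, SOCS3, PIM1, PIM2 and PIM3 are genes that cytokine signals switch on, and their levels are described here in 16 human lines derived from T-cell acute lymphoblastic leukemia (T-ALL), which arises from immature T cells. The 7 genes were taken by their symbols in the array annotation, from 19738 genes that had a probe set naming no other gene. Where a gene had several such probe sets, the one with the highest mean log2 level over the lines stands for it. All 7 passed the filter on low values, under which the third highest of a gene's 16 values had to exceed the median of the table, as did 13295 of the 19738 genes. The lines were ALL-SIL, CCRF-CEM, DU528, HSB-2, JURKAT, KOPT-K1, LOUCY, MOLT-16, MOLT-4, P12-ICHIKAWA, PEER, PF-382, SKW-3, SUP-T11, SUP-T13 and TALL-1. Each had been grown untreated in RPMI-1640 with 10% fetal bovine serum, at 1 starting density, and lysed after 24 hours. They form 1 group with no control, and RNA of each line was hybridised to 1 Affymetrix U133 Plus 2.0 array, so no value has a replicate error and every SD is a spread between different lines. Each line is a single established culture and stands for 1 leukemia.

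Cytokines such as interleukin-7 bind receptors that carry Janus kinases (JAKs), and these kinases activate STAT transcription factors, which enter the nucleus and bind paired half-sites in DNA. CISH and the SOCS proteins are made in answer to that signal and act back on it: their SH2 domain binds the activated receptor or kinase, and their SOCS box recruits a ubiquitin ligase. PIM1, PIM2 and PIM3 are serine/threonine kinases that are active as soon as they are made, so that their activity is set largely by how much of each is present, and they favour survival and growth of blood cells. In T-ALL, mutations of the interleukin-7 receptor, JAK1, JAK3 or STAT5B can keep the pathway active without a cytokine.

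The half-sites can be read in the CISH promoter, which is printed here beside those of SOCS1 and PIM1, which passed the fits with CISH below. SOCS2 passed too but had no entry among the promoters used here. The 250 bases before the start site are given, 5′ to 3′ on the gene's strand, from RefSeq on build GRCh38.p14. Capitals mark every match to TTCNNNGAA, the consensus of an activated STAT dimer, which reads the same on both strands.
CISH, chr3:50611775-50612024, minus strand: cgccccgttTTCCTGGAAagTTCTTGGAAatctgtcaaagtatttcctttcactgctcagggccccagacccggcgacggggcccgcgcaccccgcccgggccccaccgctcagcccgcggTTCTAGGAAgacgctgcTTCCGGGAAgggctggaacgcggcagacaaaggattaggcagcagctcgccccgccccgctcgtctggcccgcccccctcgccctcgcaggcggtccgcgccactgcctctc
SOCS1, chr16:11256205-11256454, minus strand: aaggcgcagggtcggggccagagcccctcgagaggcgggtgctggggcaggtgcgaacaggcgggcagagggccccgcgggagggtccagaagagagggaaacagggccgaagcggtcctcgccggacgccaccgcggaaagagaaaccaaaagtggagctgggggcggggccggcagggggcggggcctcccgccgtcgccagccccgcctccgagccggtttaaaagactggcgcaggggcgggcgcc
PIM1, chr6:37169902-37170151, plus strand: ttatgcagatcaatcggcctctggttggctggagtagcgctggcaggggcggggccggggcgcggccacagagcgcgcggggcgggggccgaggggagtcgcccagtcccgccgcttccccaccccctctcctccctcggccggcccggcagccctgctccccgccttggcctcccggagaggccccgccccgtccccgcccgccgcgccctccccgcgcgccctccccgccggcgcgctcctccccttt
The CISH sequence held 4 matches, namely TTCCTGGAA, TTCTTGGAA, TTCTAGGAA and TTCCGGGAA, which begin 241, 230, 129 and 112 bases before the start site. The promoters of SOCS1, SOCS3, PIM1, PIM2 and PIM3 held 0 in the window of 300 bases that adds 50 bases after the start site, SOCS3 being listed with a pair of start sites. Over all 35116 promoters of this length in the RefSeq table, 7.66% held at least 1 match. Only 7 promoters, of 6 genes, held 4, which was the largest count. Among those 6 genes are CISH and BCL6, a transcriptional repressor of germinal centre B cells. The same half-sites, TTC and GAA, with 4 bases between them occurred in 6.44% of promoters and in 0 of those of CISH, SOCS1, SOCS3, PIM1, PIM2 and PIM3. A match is a description of the letters and not evidence of binding.

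Intensities are on the deposited linear scale, where the median over all values was 42.4, and 4 times that median, 169, serves below as a mark of clear signal. SDs, ranges and slopes are on the scale log2(intensity + 16). Array medians ran from 37.6 to 45.0, and 18 spiked control probe sets had a median SD of 0.14 between arrays. For ACTB, the 3′ control probe set over the 5′ one, a ratio that rises as RNA degrades, ran from 1.44 in DU528 to 2.03 in MOLT-4. CD3D, a subunit of the T-cell receptor complex, lay between 7095 and 14179 in all 16 lines, whereas CD3E was 31.2 in MOLT-16 and CD2 and CD5 were 11.1 and 9.50 in DU528. Of 6 myeloid markers, 5 never exceeded 169, and the sixth, LYZ, did so only in DU528 (385). Markers of B cells (5 measured), of erythroid cells and megakaryocytes (3) and of stroma (4) had their highest summed intensities in LOUCY, at 2358, 769 and 2729, with lowest sums of 337, 82.3 and 115. MS4A1, PAX5, PF4, COL1A1 and COL1A2 among them never exceeded 169, whereas CD79A did in all 16 lines, SPARC in 7, CD79B in 4, HBB and ITGA2B in DU528 and LOUCY, EBF1 in LOUCY and PDGFRB in ALL-SIL. The summed levels had r between -0.24 and 0.05 with CISH over the 4 lists of other cell types, and their part in the results was not tested.

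The 6 highest lines were the same for CISH, SOCS1, SOCS2 and PIM1, namely ALL-SIL, DU528, HSB-2, KOPT-K1, PEER and SUP-T13, although the widest gap in the order of the lines fell at a different place for each of the 4 genes. PIM2 and PIM3 each had another order, as did SOCS3 by its probe set of highest mean. A different SOCS3 probe set, 227697_at, had r = 0.65 with CISH. The SD over the lines was 2.29 for CISH, 2.24 for SOCS1, 2.10 for SOCS2, 2.34 for PIM1, 1.55 for PIM3, 1.09 for PIM2 and 0.32 for SOCS3 (1.26 with another SOCS3 probe set described below). The median SD over the 13295 genes was 0.41, and 17.8% of them had an SD above 1. In these bulk cultures, fewer cells that express a gene and less of its RNA per cell cannot be told apart.

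**Figure D1:**
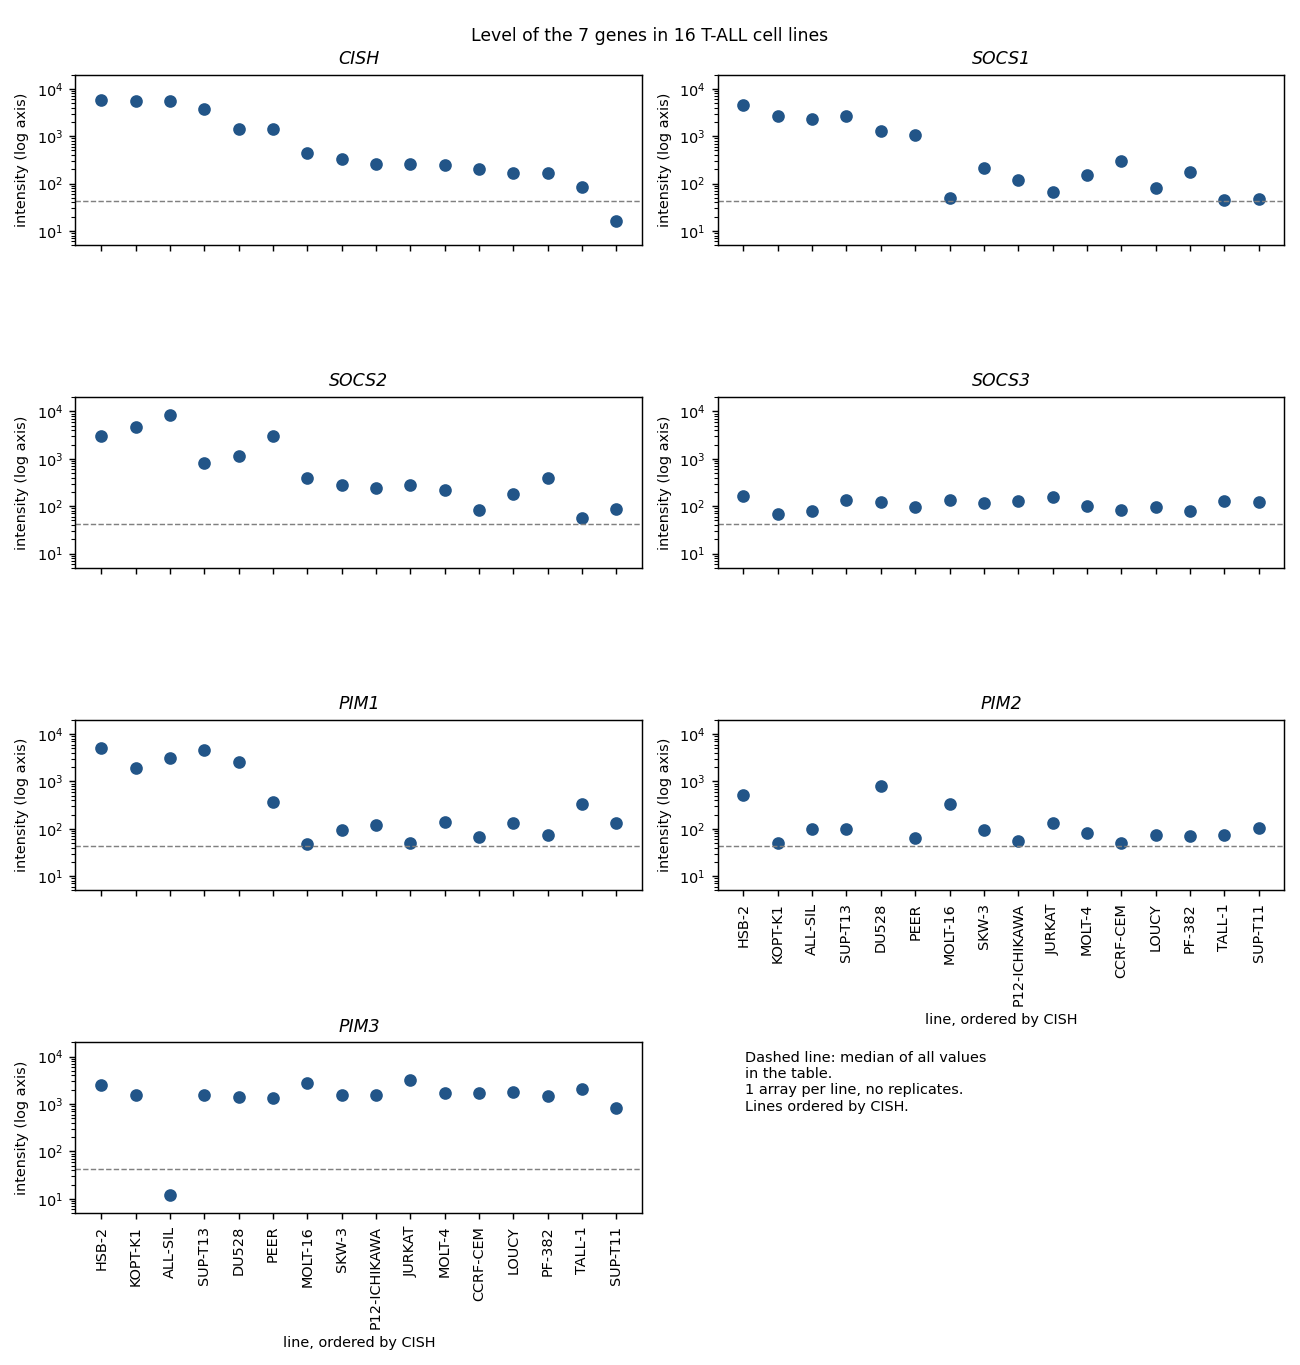
Intensity (log axis) of CISH, SOCS1, SOCS2, SOCS3, PIM1, PIM2 and PIM3 in each of 16 T-ALL lines, ordered by CISH; each point is 1 array and the dashed line is the median of all values, 42.4. CISH, SOCS1 and SOCS2 are high in the 6 lines at the left of each panel, PIM1 in 5 of these 6, PIM2 in DU528, HSB-2 and MOLT-16, and PIM3 is low only in ALL-SIL.

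CISH, the feedback inhibitor that occupies STAT5 docking sites on the receptor, was highest in HSB-2 (intensity 5856), ahead of KOPT-K1 (5513), ALL-SIL (5436), SUP-T13 (3735), DU528 (1437) and PEER (1429). The other 10 lines lay between 446 in MOLT-16 and 15.95 in SUP-T11, and the median of all 16 was 293. HSB-2, KOPT-K1 and ALL-SIL thus lay within a narrow band at the top, and TALL-1 (84.7) and SUP-T11 stood below the other 8 lower lines, of which PF-382 was the lowest at 166. With this probe set 12 lines exceeded 169, whereas with each of the other CISH probe sets only the upper 6 did. Those probe sets gave nearly the same order, with Pearson's r of 0.98 for 221223_x_at and 0.95 for 223961_s_at against the one used here, 223377_x_at. A probe set ending in x_at may also bind other transcripts.

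SOCS1 blocks JAK kinases directly by a short inhibitory region beside its SH2 domain. HSB-2 again led with an intensity of 4626, followed by KOPT-K1 (2693), SUP-T13 (2607), ALL-SIL (2338), DU528 (1315) and PEER (1079). No other line exceeded the 301 of CCRF-CEM, the lowest value was 45.1 in TALL-1, and the median was 193. The empty interval between PEER and CCRF-CEM covered 28.6% of the range, short of the third part that would count here as a split. MOLT-16, the highest of the 10 lower lines in CISH, was among the 3 lowest in SOCS1 at 48.6. A second SOCS1 probe set, 209999_x_at, had r = 0.98 with the first, while 210000_s_at and 213337_s_at never exceeded 90.3.

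SOCS2, known from mice as a brake on growth hormone signalling, reached 8378 in ALL-SIL, ahead of KOPT-K1 (4603), HSB-2 (3036), PEER (2976), DU528 (1161) and SUP-T13 (815). The next line was MOLT-16 with 399.8, the lowest was TALL-1 with 55.7, and the median was 334. ALL-SIL therefore led here, not HSB-2, and PEER, the sixth line in CISH and SOCS1, came close to HSB-2. SUP-T13 showed the reverse, as it was the third highest in SOCS1 and the second highest in PIM1 but the sixth in SOCS2. The probe set 203372_s_at gave the same picture (r = 0.997), and 232539_at never exceeded 88.8.

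SOCS3, which inhibits JAKs bound to the gp130 receptor chain, was nearly flat by 206360_s_at, its probe set of highest mean: the lowest intensity was 68.0 in KOPT-K1, the median 117 and the highest 161 in HSB-2. No line exceeded 169 with it. Another SOCS3 probe set, 227697_at, spread much wider. It was brightest in ALL-SIL (542), HSB-2 (401), PEER (210.2), SUP-T13 (137) and DU528 (131), which are 5 of the 6 lines high in CISH, and at most 81.0 in the other lines, KOPT-K1 (34.5) included. Its SD was 1.26, its correlation with 206360_s_at was -0.01, and its correlation with CISH was 0.65 by Pearson's r and 0.44 by Spearman's rho. The third, 206359_at, was dim (8.94 to 71.6) and had r = 0.64 with CISH, and the fourth, 214105_at, never exceeded 34.0. What SOCS3 did across the lines therefore differs between its own probe sets.

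**Figure D2:**
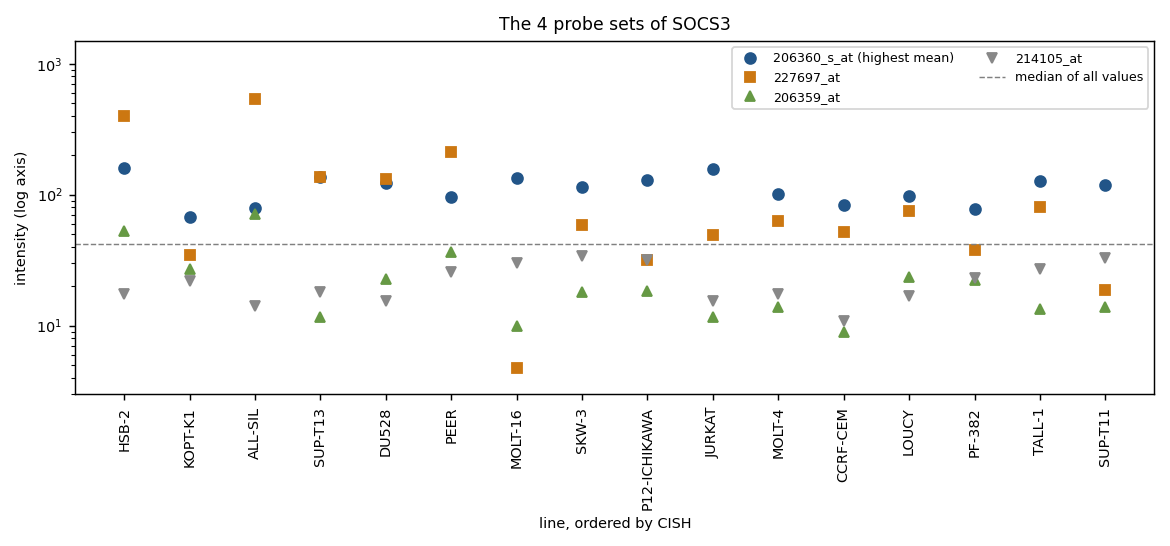
Intensity (log axis) of the 4 SOCS3 probe sets in each of 16 lines, ordered by CISH, with 1 array per line; the dashed line is the median of all values, 42.4. 206360_s_at stays between 68.0 and 161, while 227697_at runs from 4.74 in MOLT-16 to 542 in ALL-SIL.

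PIM1, the founding kinase of its family and a textbook STAT target, was the 1 gene of the 7 whose levels met the rule for a split. Its 5 highest intensities were those of HSB-2 (5131), SUP-T13 (4540.4), ALL-SIL (3123), DU528 (2626) and KOPT-K1 (1950.01). PEER followed with 372 and TALL-1 with 341, the lowest was MOLT-16 with 46.8, and the median was 134. The gap below KOPT-K1 covered 36.8% of the range, with 5 lines above and 11 below. PEER was thus among the 6 highest lines by a narrow margin only, with a level close to that of TALL-1, a line near the bottom in CISH, SOCS1 and SOCS2.

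PIM2, which phosphorylates the translation repressor 4E-BP1, was high in a different set of lines. It read 817 in DU528, 514 in HSB-2 and 329 in MOLT-16, and between 49.0 in CCRF-CEM and 135 in JURKAT in the other 13, with a median of 87.3. KOPT-K1, next to the top in CISH, SOCS1 and SOCS2, was next to the bottom in PIM2 at 49.8. Each of PIM1, PIM2 and PIM3 was read by 1 probe set, so no other reading of the order could be compared.

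PIM3 was bright in nearly every line. JURKAT had the highest intensity at 3140, the median was 1572, and SUP-T11 was the lowest of 15 lines at 839. ALL-SIL stood far below them at 12.2, a gap that covered 72.3% of the range of PIM3. The SD of 1.55 thus rests on ALL-SIL, the line with the highest SOCS2.

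Among the SOCS genes, CISH had Pearson's r of 0.92 with SOCS1 (rho 0.83) and 0.91 with SOCS2 (rho 0.89) over the 16 lines, and SOCS1 had 0.85 with SOCS2 (rho 0.77). These values, among 21 pairs of the 7 genes, describe 16 arrays of unrelated lines and carry no test. Without HSB-2 and KOPT-K1, which lie farthest from the median of CISH and of SOCS1, they were 0.89, 0.88 and 0.80. Part of each r is the distance between the 6 upper lines and the other 10. Within the 6 upper lines, r was 0.91 for CISH with SOCS1, 0.48 for CISH with SOCS2 and 0.19 for SOCS1 with SOCS2, and within the other 10 lines it was 0.39, 0.69 and 0.16. The sets were formed by the levels of these genes, and no difference between these values was tested.

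Because PIM1 split the lines, its likeness is given only among the 11 lower ones, where r was 0.07 with CISH, 0.32 with SOCS1 and 0.17 with SOCS2. Spearman's rho was -0.19, 0.03 and -0.24 there. These values rest on PEER: among the 10 lines without it, r was -0.52, -0.26 and -0.66. SOCS3 and PIM2 had r = 0.56 (rho 0.63), with SOCS3 in a narrow range near background, and r = 0.22 (rho 0.20) where SOCS3 was read by 227697_at. PIM3 had r = -0.48 with SOCS2 and -0.31 with CISH, and these rest on ALL-SIL: without ALL-SIL alone they were 0.04 and 0.21.

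**Figure D3:**
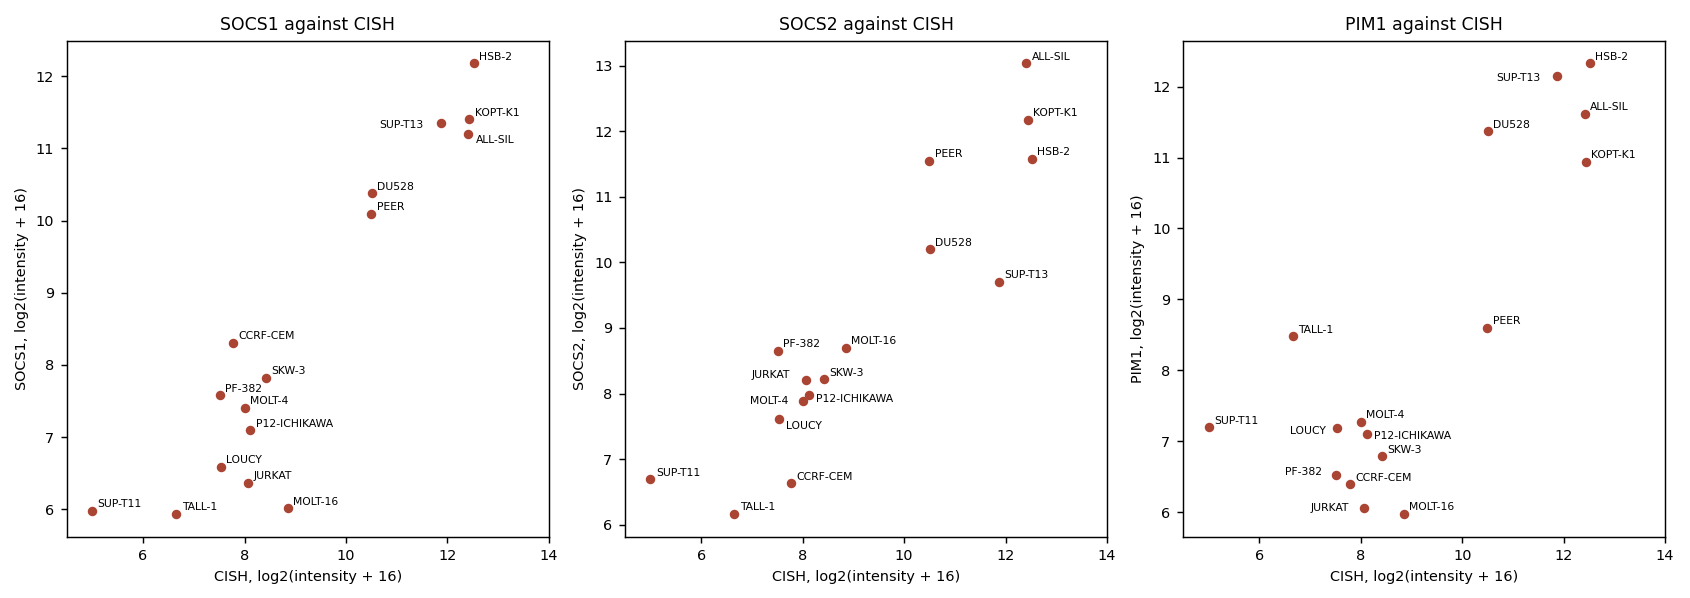
Levels of SOCS1, SOCS2 and PIM1 against CISH, all as log2(intensity + 16), with 1 labelled point per line (16 lines). In each panel ALL-SIL, DU528, HSB-2, KOPT-K1, PEER and SUP-T13 lie at the right, PEER being lower than the other 5 in PIM1 and SUP-T13 lowest of the 6 in SOCS2.

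To ask which genes of the whole table shared these patterns, every gene was fitted with limma on the log2 level of CISH, SOCS2 or PIM1, and p-values were adjusted by Benjamini and Hochberg over 13294 genes. A slope is the log2 change of a gene per log2 unit of the gene it was fitted on. With CISH, 15 genes passed an adjusted p of 0.05, which is 0.113% of the genes tested. All 15 were higher in lines with more CISH. SOCS1 had the smallest p, with a slope of 0.91 (SE 0.09, limma adjusted p = 0.000676), followed by SOCS2 with 0.84 (SE 0.09, adjusted p = 0.00105). PIM1 was also among the 15, with 0.84 (SE 0.15, adjusted p = 0.0415). That made 3 of the 6 other genes described here. SOCS3 had a slope of -0.01 (adjusted p = 0.966), or 0.35 (adjusted p = 0.282) where each gene is read by its probe set of highest SD, 227697_at for SOCS3. PIM2 had 0.14 (adjusted p = 0.802) and PIM3 -0.21 (adjusted p = 0.786).

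SOCS1 and SOCS2 passed with each of the 16 lines left out in turn, at adjusted p of at most 0.00539 and 0.00609. PIM1 did not hold as firmly. It passed without MOLT-16, PEER, SUP-T11 or TALL-1, and lost the call without any of the other 12 lines, at adjusted p between 0.0516 (without LOUCY) and 0.153 (without HSB-2). It was also lost with no filter on low genes (adjusted p = 0.0526), with ranks of CISH (0.16) and with the ACTB ratio as a covariate (0.0604). The slope stayed positive throughout. PIM1 had r = -0.50 with the ACTB ratio over the 16 lines, SOCS1 -0.43, CISH -0.26 and SOCS2 -0.19.

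Outside the 7 genes, TNFSF10, which encodes the death ligand TRAIL, had the smallest p with CISH (slope 0.75, SE 0.09, adjusted p = 0.0027). Its intensity was at least 1160 in the 6 upper lines and at most 648 (SKW-3) in the others, with 4810.5 in HSB-2 and 46.0 in PF-382. NHERF1, a scaffold protein under the cell membrane, had a smaller slope of 0.28, and its 6 highest lines, from 2966 in PEER to 4562 in HSB-2, were the same 6. RAB11FIP1, an adaptor in endosome recycling, had a slope of 0.45, and SYNJ2, a phosphoinositide phosphatase, 0.27. RAB11FIP1 lost the call without ALL-SIL (adjusted p = 0.0614), and SYNJ2 without ALL-SIL (0.0614) or HSB-2 (0.0552) and with the probe set of highest SD (0.192). The other genes that passed were SLC35F3, OSM, TFEC, ACAP2, MBNL1, STX11, UBE2N and GAB2. The number of calls itself depended on single lines: it was 4 without ALL-SIL, 6 without HSB-2, P12-ICHIKAWA or PF-382, 7 without MOLT-4, 8 without DU528, 9 without JURKAT or SUP-T13 and 23 without SUP-T11.

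No gene passed in the opposite direction with CISH when all 16 lines were fitted, although 8.69% of all genes had an unadjusted p below 0.05 in one direction or the other. That share was 5.67% with SOCS2 and 11.7% with PIM1. The 0 depended on single lines, as 4 genes passed in that direction without SUP-T11, 2 without KOPT-K1, PEER or TALL-1, and 1 without LOUCY. The nearest were SYNGR1, a synaptic vesicle protein (slope -0.73, adjusted p = 0.0643), GTF2IP20 (-0.15, adjusted p = 0.0766) and TCF4, a basic helix-loop-helix factor (-0.67, adjusted p = 0.0766). GTF2IP20 was dim and did not exceed 123 in any line. TCF4 passed without SUP-T11 (adjusted p = 0.0034) or PEER (0.048). SYNGR1 passed without PEER (0.0328) and on the scale log2(intensity + 64), at an adjusted p of 0.0473.

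SOCS2 was followed by 1 gene alone, 0.00752% of those tested, and that gene was CISH (slope 0.998, SE 0.11, limma adjusted p = 0.00207), which passed without each line in turn. SOCS1 came next with a slope of 0.91 (adjusted p = 0.0583) and passed on the scale log2(intensity + 64) (adjusted p = 0.0366). SOCS2-AS1, transcribed from the other strand at the SOCS2 locus, followed by p (slope 0.37, adjusted p = 0.0967). Its intensity was 227 in ALL-SIL, 78.2 in KOPT-K1 and 66.3 in PEER, which are 3 of the 4 highest lines of SOCS2, and at most 33.7 elsewhere. GAB2, an adaptor of cytokine receptors, TFEC, a basic helix-loop-helix factor, and DPP4, the surface protease CD26, followed with slopes of 0.83, 0.72 and 1.07, each at an adjusted p of 0.326. PFDN4, ARHGEF10 and KBTBD11 had the smallest p among negative slopes, also at 0.326. PIM1 had 0.82 on SOCS2 (adjusted p = 0.326) and PIM3 -0.35 (adjusted p = 0.87), the PIM3 slope being 0.01 without ALL-SIL. The count of calls was 2 without CCRF-CEM, LOUCY, MOLT-16 or PEER and 3 without SUP-T13. These calls included SOCS1 without CCRF-CEM (limma adjusted p = 0.0153), MOLT-16 (0.0307) or SUP-T13 (0.0267). They also included SOCS2-AS1 without SUP-T13 (0.0267) and ARHGEF10 without LOUCY (0.0258).

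PIM1 was followed by 29 genes, 0.218% of those tested, of which 22 (0.165%) were higher and 7 (0.0527%) lower in lines with more PIM1. After quantile normalization of the arrays the split was 21 higher and 13 lower. Since PIM1 split the lines, these slopes mostly set its 5 high lines against the other 11. SOCS1 had a slope of 0.84 (SE 0.11, limma adjusted p = 0.00493) and passed without each line in turn, at adjusted p of at most 0.0251. CISH had 0.80 (SE 0.14, adjusted p = 0.0214), and lost the call without ALL-SIL (0.0505), PF-382 (0.0557), SUP-T13 (0.0717) or HSB-2 (0.0876) and with the ACTB ratio as a covariate (0.0528). With ranks of PIM1, both lost it (0.0668 for SOCS1 and 0.168 for CISH). SOCS2 had 0.65 (adjusted p = 0.105), PIM2 0.17 (0.585), PIM3 -0.24 (0.582) and SOCS3 0.00 (0.993), the last being 0.39 (adjusted p = 0.0979) with 227697_at.

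KLF6, an early growth-response transcription factor, had the smallest p with PIM1 (slope 0.48, adjusted p = 0.00493). Its intensity was between 1887 in KOPT-K1 and 5375 in HSB-2 in the 5 lines high in PIM1, and at most 1069 (TALL-1) in the others. NUCB1, a calcium-binding Golgi protein (0.23), NHERF1 (0.27), the long noncoding RNA GRASLND (0.78) and UGP2, which makes UDP-glucose (0.22), also passed. UGP2 lost the call without HSB-2 (adjusted p = 0.0534). With ranks of PIM1, KLF6, NHERF1, GRASLND and UGP2 lost it (0.0564 to 0.0607), and with the ACTB ratio as a covariate NUCB1, NHERF1 (both 0.0528) and UGP2 (0.124) did. Among genes that were lower with more PIM1, TCF4 was between 12.7 and 30.1 in those 5 lines and at least 215 in the other 11 (slope -0.74, adjusted p = 0.00493, or 0.132 with ranks of PIM1). TERT, the catalytic subunit of telomerase, was between 17.0 and 45.3 in the 5 lines, and between 34.6 in TALL-1 and 1223 in MOLT-16 in the other 11 (slope -0.57, adjusted p = 0.00806). HDAC4-AS1 had a slope of -0.19 (adjusted p = 0.00493) but ran only from 41.4 in HSB-2 to 141 in JURKAT, below the mark of clear signal throughout. The lists for CISH and PIM1 share lines and each other's driver, and 5 genes stood in both, namely NHERF1, SLC35F3, SOCS1, STX11 and TNFSF10, which is 33.3% of the CISH list and 17.2% of the PIM1 list. Of these, STX11 was dim in all lines, from 11.4 in PF-382 to 112 in HSB-2. The PIM1 count was 13 without HSB-2 or SUP-T13, 16 without PF-382, 44 without SUP-T11 and 53 without LOUCY.

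**Figure D4:**
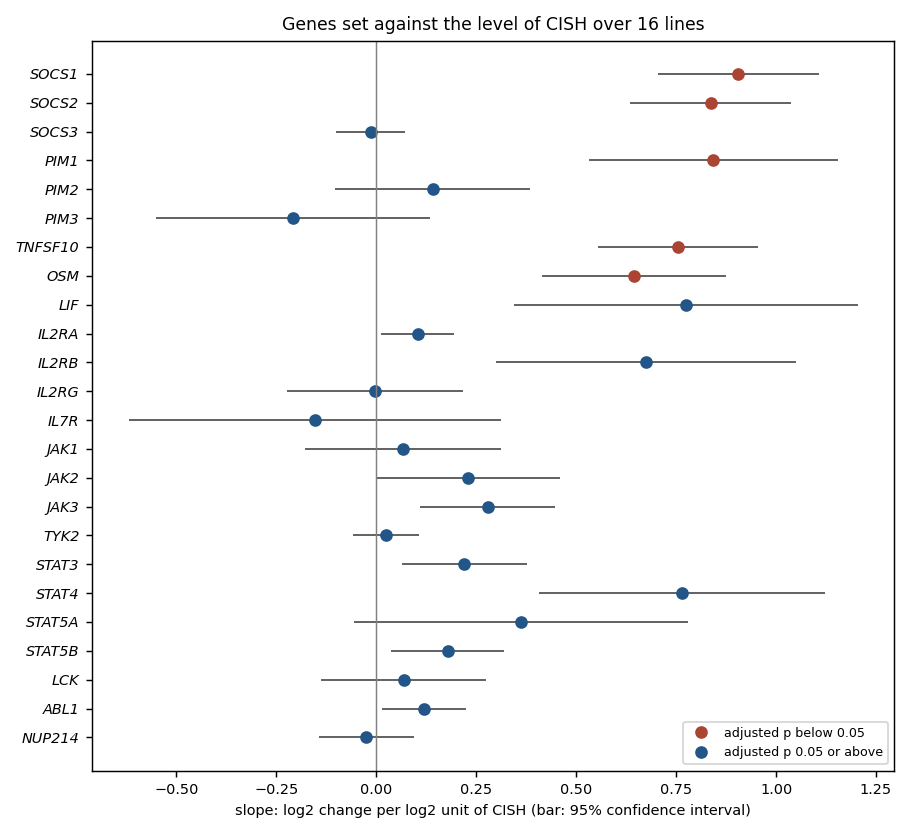
Slope of each named gene on CISH (log2 units per log2 unit, x axis) over 16 lines, with 95% confidence intervals from limma; red marks an adjusted p below 0.05. SOCS1, SOCS2, PIM1, TNFSF10 and OSM pass, and the intervals of SOCS3, PIM2, PIM3, IL2RG, IL7R, JAK1, JAK2, TYK2, STAT5A, LCK and NUP214 hold 0.

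Around the 7 genes, 8 lists of the pathway, not all of them upstream, held 107 genes, of which 101 were measured and 6 are not analysed here. Of the cytokine receptors, 20 were tested and 0 passed with CISH, SOCS2 or PIM1, although 5, 4 and 7 of them had an unadjusted limma p below 0.05, where the share over all genes was 8.69%, 5.67% and 11.7% in these 3 fits. The median slope of the receptors on CISH was 0.02, beside 0.00 for all genes. IL7R, the receptor chain for interleukin-7, did not share the order of CISH: its highest values were those of TALL-1 (3879) and KOPT-K1 (3303) and its lowest those of HSB-2 (15.9) and DU528 (24.4) (slope -0.15, adjusted p = 0.915). The median of IL7R was 246, and its highest lines were one near the bottom and one near the top of the CISH order. IL2RB, the chain shared by the interleukin-2 and interleukin-15 receptors, had the larger slope of 0.67 (adjusted p = 0.203), with 3318 in KOPT-K1 and 7.46 in SUP-T11. It was also 2541 in LOUCY, a line with 169 in CISH. IL2RG, the common gamma chain, lay between 167 and 1895 with a slope of 0.00 (adjusted p = 0.999), and IL2RA did not exceed 68.3 in any line.

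The receptor for interleukin-9 (IL9R) and the stem cell factor receptor (KIT), which carry growth signals in early blood cells, were high in DU528, HSB-2, PEER and SUP-T13. IL9R read 2991 in SUP-T13, 2477 in DU528, 2212 in HSB-2 and 796 in PEER and at most 225 elsewhere, whereas KIT was bright in HSB-2 (3613), PEER (2608), DU528 (2403) and SUP-T13 (2219) and at most 304 elsewhere. These are 4 of the 6 lines high in CISH, and the values of ALL-SIL and KOPT-K1 were 225 and 71.6 for IL9R and 8.06 and 4.92 for KIT. Neither gene passed with CISH, SOCS2 or PIM1; both are named here after their values were seen.

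Of the ligands, 7 were tested. An unadjusted limma p below 0.05 was found for 3, 3 and 4 of them with CISH, SOCS2 and PIM1, beside 8.69%, 5.67% and 11.7% of all genes. Their median slope on CISH was 0.23, beside 0.00 for all genes. The gene OSM, which encodes oncostatin M and is itself a STAT5 target, passed with CISH (slope 0.65, SE 0.11, limma adjusted p = 0.0356). Its level was 795 in HSB-2, 515 (SUP-T13), 316 (ALL-SIL), 251 (KOPT-K1) and 175 (PEER), at most 101 in the lower 10 lines, and 10.0 in DU528, so that DU528 departed from the other 5 upper lines. OSM lost the call without ALL-SIL, HSB-2, JURKAT, KOPT-K1, MOLT-4, P12-ICHIKAWA, PF-382, SUP-T13 or TALL-1, at adjusted p between 0.0501 and 0.142, and also with ranks of CISH (0.146) and with the ACTB ratio as a covariate (0.0637). LIF, another gp130 cytokine, passed with PIM1 (slope 0.87, SE 0.17, adjusted p = 0.0387) and not with CISH (0.77, adjusted p = 0.203). It was high in DU528 (3031), HSB-2 (2865), SUP-T13 (1473) and KOPT-K1 (207) and did not exceed 40.9 elsewhere, so that its level was set apart in 4 lines. LIF kept the call only without ALL-SIL, LOUCY, MOLT-16, SUP-T11 or TALL-1, and in the other 11 cases its adjusted p lay between 0.0503 and 0.155. It was also lost with no filter on low genes (0.0561), with ranks (0.155) and with the ACTB ratio (0.253).

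Of the JAK kinases and STAT factors, 9 were tested. None passed with CISH or SOCS2 over all lines, and STAT4 passed with PIM1. An unadjusted limma p below 0.05 was found for 4, 5 and 7 of the 9 with CISH, SOCS2 and PIM1, beside 8.69%, 5.67% and 11.7% of all genes. Their median slope was 0.22 on CISH, 0.20 on SOCS2 and 0.17 on PIM1, beside 0.00 for all genes in each case. STAT4, a factor of interleukin-12 signalling, was bright in SUP-T13 (1795), DU528 (1638), HSB-2 (1325), KOPT-K1 (646), ALL-SIL (588) and SKW-3 (543), against at most 106 elsewhere (slope on PIM1 0.81, SE 0.14, adjusted p = 0.0229). SKW-3 had 94.6 in PIM1 and 325 in CISH, and PEER had 15.6 in STAT4, so that STAT4 had its own exceptions at both ends. It lost the call without DU528 (0.0619), HSB-2 (0.0876), PF-382 (0.0587) or SUP-T13 (0.0958), with ranks (0.147) and with the ACTB ratio (0.145). With CISH it passed only without PEER (0.048).

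STAT5A and STAT5B, the factors that bind the CISH promoter in many blood cells, were both highest in DU528 (5431 and 3310.4) and lowest in SUP-T11 (31.6 and 371), the line lowest in CISH. Their slopes on CISH were 0.36 (adjusted p = 0.641) and 0.18 (adjusted p = 0.421). STAT5A was 3194 in MOLT-4 and 2954 in LOUCY, with CISH at 241 and 169, and 427 in KOPT-K1 and 429 in SUP-T13, with CISH at 5513 and 3735. The RNA of STAT5A thus did not order the lines as CISH did. JAK3, the kinase of the common gamma chain, had 0.28 (adjusted p = 0.241), with its highest value in SUP-T13 (1031) and its lowest in TALL-1 (139.7). JAK2 had 0.23 (0.575), JAK1 0.07 (0.928), TYK2 0.02 (0.924) and STAT3 0.22 (0.359). The arrays read RNA and not the activity of these proteins.

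A list of other kinases upstream of STAT5 gave 6 tested genes, namely LCK, ABL1, KIT, SRC, FYN and NUP214. NUP214 is not itself a kinase and was listed as the fusion partner of ABL1. Of these 6 genes, 0 passed and 1 had an unadjusted limma p below 0.05 with each of CISH, SOCS2 and PIM1, beside 8.69%, 5.67% and 11.7% of all genes. ALL-SIL and PEER are known to carry the NUP214-ABL1 fusion, and HSB-2 a translocation that activates LCK. ABL1 was 5320.2 in ALL-SIL and 2010.1 in PEER, with 870 to 2274 over the 15 lines other than ALL-SIL (slope on CISH 0.12, adjusted p = 0.486). LCK was 14199 in HSB-2, with 8753 in JURKAT as the next value (slope 0.07, adjusted p = 0.914). NUP214 was highest in LOUCY (1803) and read 1001 in ALL-SIL and 484 in PEER (slope -0.03, adjusted p = 0.949). All 3 of these lines belong to the upper 6 of CISH, SOCS1 and SOCS2. Whether the fusions bear on those levels was not tested.

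Beside the SOCS genes described above, 15 other negative regulators of the pathway were tested and 0 passed in any of the 3 fits, with unadjusted limma p below 0.05 for 0, 1 and 2 of them, beside 8.69%, 5.67% and 11.7% of all genes. Their median slope on CISH was -0.01, beside 0.00 for all genes. SOCS4 stayed between 1035 and 1812 in all lines. SOCS5, a member of the same family, was 11.5 in ALL-SIL and 168 to 517 in the other 15, so that ALL-SIL, with the highest SOCS2, had the lowest values of both SOCS5 and PIM3. SOCS6 ran from 2.64 in TALL-1 to 367 in JURKAT. PTPN6, the phosphatase SHP-1, was highest in DU528 (4545). The 4 subunits of the ubiquitin ligase that the SOCS box recruits, ELOB, ELOC, CUL5 and RNF7, read at least 1327 in every line, and 0 passed in any of the 3 fits, with 0 at an unadjusted p below 0.05.

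Of 19 other STAT5 target genes, 1 passed with CISH, namely OSM, and 0 with SOCS2 or PIM1, with unadjusted limma p below 0.05 for 8, 4 and 8 of them, beside 8.69%, 5.67% and 11.7% of all genes. Their median slope was 0.19 on CISH, 0.17 on SOCS2 and 0.20 on PIM1, beside 0.00 for all genes. The members did not share 1 order. DUSP6, a phosphatase of ERK, peaked in HSB-2 (10799), ALL-SIL (9112) and KOPT-K1 (5056), which are also the 3 highest lines of CISH, but 325 in SUP-T13. CCND2, a cyclin, was 6607 in DU528 and 2203 in SUP-T13, but 27.8 in ALL-SIL. BCL6, whose promoter holds as many TTCNNNGAA matches as that of CISH and which STAT5 is known to repress in lymphocytes, was 27.3 in DU528 and 1209 in LOUCY, with r = -0.29 with CISH. Other lines went the other way, with BCL6 at 468 in SUP-T13, a line high in CISH, and at 61.1 in MOLT-16, a line lower in CISH. DUSP6, CCND2 and BCL6 are named after their values were seen.

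Proteins that PIM kinases phosphorylate were tested as 12 genes, and 0 passed in any fit, with unadjusted limma p below 0.05 for 1, 0 and 3 of them with CISH, SOCS2 and PIM1, beside 8.69%, 5.67% and 11.7% of all genes. Their median slope on PIM1 was 0.00, as for all genes. CDKN1A, the cell cycle inhibitor p21, was high in DU528 (3238), HSB-2 (2767) and KOPT-K1 (1272), but 3.06 in ALL-SIL, the third highest line in PIM1. CXCR4, a chemokine receptor that PIM1 phosphorylates, was lowest in DU528 (570.4) and highest in TALL-1 (10348). Both are named after their values were seen.

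For the genes that were not fitted as a driver, the most similar genes over the 16 lines were ranked by Pearson's r. SOCS1 was most like CISH (0.92) and TNFSF10 (0.91). PIM1 was the next by r, and as it split the lines its pooled value is not given. PIM3 was most like HDHD5 (r = 0.97), SLC15A4, an endosomal peptide transporter (0.96), and LONRF1 (0.93). In ALL-SIL these read 30.4, 5.88 and 23.5, their lowest values, whereas the other 15 lines had at least 1241 for HDHD5, 483 for SLC15A4 and 211 for LONRF1. Without ALL-SIL alone, r was 0.59 for HDHD5, 0.51 for SLC15A4 and 0.57 for LONRF1.

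PIM2 was most like KIR3DS1 (0.86), CLDND1 (0.85) and KIR2DL4 (0.85), each highest in DU528, the line with the highest PIM2. CLDND1 read 5593 in DU528 and 5384 in HSB-2 and at most 1821 elsewhere, and without these lines r was 0.76 for KIR3DS1, 0.29 for CLDND1 and 0.50 for KIR2DL4. KIR3DS1 and KIR2DL4 belong to a family of nearly identical natural killer cell receptors, so that their probe sets may read each other's RNA. SOCS3, by the probe set of highest mean, was most like SLC25A34 (0.86), HSD3B1 (0.83) and TMEM53 (0.81). Their highest values were 66.0, 116 and 219, of which only that of TMEM53 exceeds 169. The probe set 227697_at was most like other genes, namely ITGB5 (0.91), LEO1 (0.87) and NCALD (0.87), each highest in ALL-SIL, as 227697_at was. Their highest values were 143, 1518 and 462, so that ITGB5 did not exceed 169 in any line. All of these r describe 16 arrays that share a scaling.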

How the data were processed

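Total RNA of 16 T-ALL lines was measured on Affymetrix U133 Plus 2.0 arrays, 1 per line. What the authors deposited is an intensity per probe set, linear and already brought to similar levels between arrays. Not given in the sources used here are their software, background correction and scaling method. The table holds 54675 probe sets per array, from 0.6 to 24485, with 494 to 583 values of exactly 1 on each array. No further normalization was applied, and depth is replaced here by signal over the table median, so the number of arrays limits precision.

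Of the probe sets, 62 were controls, 41091 named 1 gene in the platform annotation, 1801 several genes and 11721 were not listed; 41048 of the first kind matched a RefSeq symbol, which gave 19738 genes. Values were taken as log2(intensity + 16). Genes entered the tests where the 3rd highest value exceeded the table median. Each of 13294 genes was fitted on the log2 level of CISH, SOCS2 or PIM1, with limma 3.58.1 (trend and robust, two-sided) in R 4.3.3, all 16 lines, no covariate, Benjamini-Hochberg adjustment and a threshold of 0.05. CISH, SOCS2 and PIM1 were chosen from textbook knowledge of STAT5 elements. In the promoters read here CISH held 4 matches and PIM1 held 0, and SOCS2 had no entry. As no line was repeated, these p-values set each slope against the scatter of the lines around the fit, not against a replicate error. Correlations are descriptions without a test. A gene was called split if the widest gap in its order took up at least the third part of its range, with 3 or more lines on both sides.

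The genes, lists and tests were chosen with earlier results of these data known. Named are the 7 genes; per fit the 6 smallest p with a positive and the 3 with a negative slope; list genes called in any fit and IL7R, IL2RA, IL2RB, IL2RG, JAK1, JAK2, JAK3, TYK2, STAT3, STAT5A, STAT5B, LCK, ABL1 and NUP214; and for SOCS1, SOCS3, PIM2 and PIM3 the 3 most similar genes. Other names are given after their values were seen or complete a list or count.

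The alternatives were log2(intensity + 64), quantile normalization, no filter, the probe set of highest SD, ranks, the ACTB ratio as a covariate and leaving out each line. Tested on simulated data with 200 genes that followed the driver among 13294, limma recovered 83% at a slope of 0.5 and 100% at 1 for CISH with 11 false calls, 79% and 100% for SOCS2 with 5, and 91% and 100% for PIM1 with 6. The simulated noise was independent between genes and the largest SDs were capped. Real genes vary together and some have larger SDs, so these shares do not give the power of the real fits. Promoters were read from RefSeq (GRCh38.p14), which matched 6 of the 7 genes. Tables and figures were made with pandas 2.3.3, numpy 2.4.6, matplotlib 3.10.9 and scipy 1.17.1 under Python 3.11.15.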

Additional observations from a re-analysis of the deposited data

How the results depend on the processing

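The number of genes that followed CISH, 15 as reported, was 16 on the scale log2(intensity + 64) and 10 after quantile normalization or with no filter. It was 9 with the probe set of highest SD for each gene, 7 with ranks of CISH and 8 with the ACTB ratio as a covariate. When each line was left out in turn, it ran from 4 to 23. SOCS2 was followed by 1 gene as reported, by 2 on the scale log2(intensity + 64), and by 1 to 3 with a line left out. PIM1 was followed by 29 genes as reported, by 6 with ranks, by 8 with the ACTB ratio as a covariate, and by 13 to 53 with a line left out. The causes were not tested. The following counts cover the other settings with all 16 lines kept. Among slopes that passed, 104 of the values stayed past the threshold and 22 did not, and none changed sign. Among slopes that did not pass, 405 values stayed so, 2 passed (SYNGR1 on CISH and SOCS1 on SOCS2, given above) and 10 changed sign without passing. Those 10 were SOCS3 on CISH (0.35 with the probe set of highest SD and 0.0027 per rank), SOCS3 on SOCS2 (0.38 with that probe set), SOCS3 on PIM1 (-0.0030 after quantile normalization, -0.00028 per rank and -0.0076 with the ACTB ratio), JAK1 on CISH (-0.024) and on SOCS2 (-0.011), TYK2 on CISH (-0.0089) and IL7R on PIM1 (0.024), the last 4 with the ACTB ratio. Per-rank slopes are in other units than the rest. With a line left out, further slopes passed. Among them were those on CISH and SOCS2 given above and OSM on PIM1 without DU528 (limma adjusted p = 0.0297). Further slopes also changed sign then, such as IL2RG on CISH, which was positive in 7 of 16 such fits. The range of SOCS3 was 1.07 as reported and 4.75 with 227697_at. No paired analysis was possible because the lines form 1 group. Lines with CISH, SOCS1 or PIM1 near the table median have no reliable order there. The same caution holds for PIM2 in most lines and for SOCS3 by its probe set of highest mean, both below the mark of clear signal. With 227697_at, SOCS3 exceeded that mark in ALL-SIL (542), HSB-2 (401) and PEER (210).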
